A study of Mus musculus with 12 samples.

Results

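Alternative first exons were examined in mouse CD8+ T cells that had met antigen with or without costimulation. They are the stretches of a gene, called nodes, that the splicing program Whippet typed as AF in its comparison of the groups. Every AF node with a numeric Psi in both groups was taken, which gave 1145 of the 115403 nodes of the comparison. Psi is the proportion, between 0 and 1, of a node's reads in which the exon is included. The 1145 nodes lay in 991 genes. In 863 genes there was 1 node, in 128 there were 2 or more, and the largest number in a gene was 9. Of the nodes, 1131 lay in protein coding genes, and their median length was 152 bases (10 to 2739 bases).

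The cells came from OT-I Tg mice on a C57BL/6J background, whose transgenic T cell receptor recognises the ovalbumin peptide SIINFEKL. OT-I CD8+ T cells were transferred into C57BL6/J recipients, which then received peptide with a control rat IgG (Ag, 5 libraries) or peptide with agonist antibodies against OX40 (CD134) and 4-1BB (CD137), a pair of costimulatory receptors (Ag+Costim, 5 libraries). By the study's methods the OT-I donors lacked Rag1 or Rag2, so the transferred cells carried the transgenic receptor only. The labels place the harvest of spleen and lymph nodes 4 days after stimulation, followed by sorting of CD8+ T cells. The Naive group (2 libraries) held CD8+ T cells of untransferred OT-I mice, so Naive differed from the other groups in transfer and in stimulation. Per-animal ages are not in the labels. The libraries were made from poly(A) RNA with a full-length, unstranded kit. Nothing in the labels ties a library to a single animal. The study's captions count the columns of its main expression heat maps as biological replicates and give 5 samples a group for its repeat experiment. The p-values below measure the spread between these libraries, which may in part be technical.

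A gene can be transcribed from more than 1 promoter. Each promoter gives the RNA its own first exon, which is then joined to later exons that the transcripts have in common. If the start codon lies in the first exon, a change of promoter changes the amino end of the protein. If it lies further on, in an exon that the transcripts share, the protein can stay the same while the 5′ leader changes, which can affect translation and RNA stability. T cells are known for such promoter pairs at several of their regulators, among them Nfatc1, Lef1, Tcf7 and Satb1.

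How far apart the alternative starts lie in sequence is shown by 5 genes in which the node carries a start codon of its own and in which Psi and read counts moved together between Ag and Ag+Costim. Each line gives the first 30 coding bases, 5′ to 3′ on the coding strand, with the start codon in capitals, read from GENCODE vM21 transcripts (mm10). "Other start" is the most counted other start of the same gene.
Rtn4 node: ATGgacgatcagaagaaacgttggaaggac
Rtn4 other start: ATGgaagacatagaccagtcgtcgctggtc
Prkacb node: ATGgcagctcacaaagaactgtccagtggc
Prkacb other start: ATGgggaacactgcgatcgccaagaaaggc
Rassf1 node: ATGggcgaggctgaaacaccttccttcgaa
Rassf1 other start: ATGtcggcggagccagaactcattgaacta
Net1 node: ATGgtggcgcatgatgagatcggaggtctc
Net1 other start: ATGgagccagagccggcggctcagaagcag
Mast3 node: ATGtccgaccccagctactggaccgcggtc
Mast3 other start: ATGaagtcccgcagggagaaattactgatc
The start codon of the Rtn4 node began at base 29718849 of chromosome 11, and its transcript had 199 codons against 356 for the other start. The Prkacb node coded for 398 codons against 351, the Rassf1 node for 270 against 340, the Net1 node for 541 against 595, and the Mast3 node for 1305 against 1321.

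The promoters differed as well in some of these genes. The lines below give the 30 bases before the start of the RNA for a pair of those genes, from RefSeq promoters on GRCm38.p6, with CG pairs in capitals. They are shown because the node and the other start stood far apart in CG content.
Rtn4 node, chr11:29718533-29718562, plus strand: ttttcttttggtagctgcctccttccctgc
Rtn4 other start, chr11:29692868-29692897, plus strand: ggctctctgtccccCGCGccagccagccct
Prkacb node, chr3:146781417-146781446, minus strand: tgcaaaccctgctgacaggaagtttagcac
Prkacb other start, chr3:146812947-146812976, minus strand: CGtgtCGgggaCGCGCGtggagggCGggct
Over the whole 250 bases before the start, the Rtn4 node had 39.2% G and C and 1 CG pair, and its other start 61.2% and 12. The Prkacb node had 36.8% and 1 CG pair, and its other start 69.2% and 30. Net1 went the other way, with 54.8% and 14 CG pairs at the node and 44.0% and 5 at its other start. In Rassf1 both had 67.2%, with 24 CG pairs at the node and 23 at the other start. The other start of Mast3 had no matched promoter.

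Most alternative first exons were minor in both groups, and Psi was more often lower than higher with costimulation. The median Psi was 0.0974 in Ag and 0.0879 in Ag+Costim. Psi was below 0.1 in 584 nodes in Ag and in 624 in Ag+Costim, and above 0.9 in 157 and 159. The deposited table gives 1 Psi per group and none per library, so a difference of Psi is given here with no replicate error and no test. Psi was higher in Ag+Costim in 505 nodes and lower in 640, with a median size of the difference of 0.0216. Past 0.05 in size, the threshold of the study, were 284 nodes in 265 genes, of which 110 were higher and 174 lower in Ag+Costim. Over all nodes of the comparison, 12.7% were higher and 6.44% lower by that much. Past 0.1 were 130 nodes (52 higher, 78 lower), past 0.2 were 41 (16 higher, 25 lower) and past 0.5 were 2, Sdr42e1 (higher) and Rtn4 (lower). Psi crossed 0.5 in 10 nodes upward and 18 downward. That does not show a change of the preferred first exon, because Psi is not a share among the starts of a gene. In Ag, for example, the nodes of Tnfrsf9 had Psi 0.645 and 0.892, both above 0.5.

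**Figure D1:**
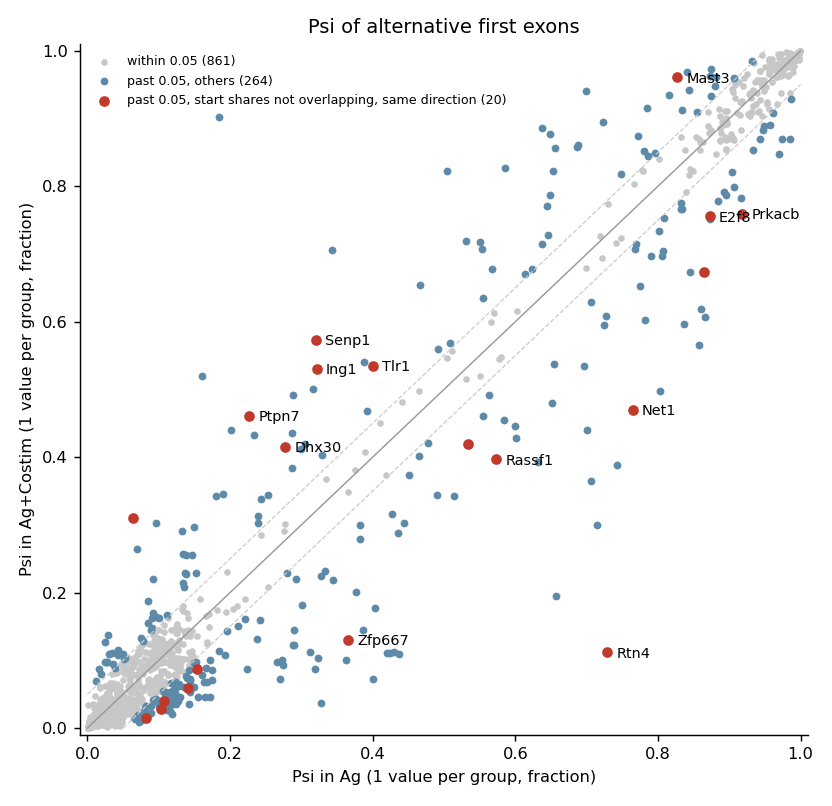
Psi of each of the 1145 alternative first exons in Ag (horizontal) and Ag+Costim (vertical), both from 0 to 1, 1 value per group. Most points lie near the diagonal and close to 0; 174 lie over 0.05 below it and 110 over 0.05 above it, and the Rtn4 node stands farthest below.

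The balance of higher and lower Psi was set beside that of the other node types. Of the first exons that passed 0.05, 38.7% were higher in Ag+Costim. The share was 37.96% for the 448 alternative last exons, 49.6% for the 8754 tandem transcription starts (neighbouring starts within an exon), 50.8% for the 12351 tandem ends and 81.9% for the 89034 core exons. In all, 24.8% of alternative first exons passed 0.05, against 39.7% of tandem starts and 12.9% of core exons. These shares are descriptions, because nodes of a gene are read from the same RNA.

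**Figure D2:**
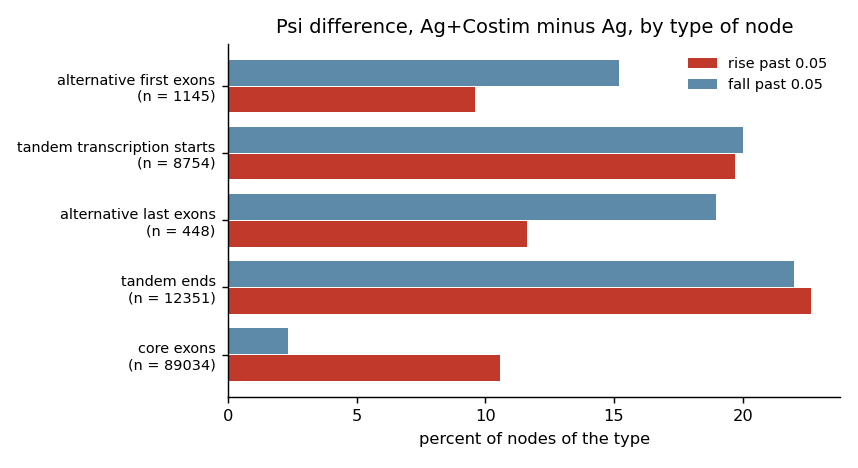
Percent of nodes (bars) with Psi higher or lower in Ag+Costim by over 0.05, for 5 node types, from 1 Psi per group. Alternative first exons were lower in 15.2% and higher in 9.61%, while core exons were higher in 10.6% and lower in 2.34%.

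To set replicates beside Psi, the transcript counts of each library were added up per start. A start is a group of annotated transcripts of a gene whose first exons overlap on 1 strand, and its share is the percent of the gene's counts that it holds. All 1145 nodes matched a start, at 1140 distinct starts. Psi and the start share come from the same reads but are counted differently. In Ag they lay a median of 6.33 percentage points apart, and over 50 points apart in 69 of 1144 nodes, Mast3, Tcf7, Foxp1 and Herc2 among them. The start share therefore tests whether libraries differ in their use of a start and does not put an error on Psi.

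Between Ag and Ag+Costim, 47 of the 768 starts that could be tested changed share, 19 rising and 28 falling (edgeR exon-level test, adjusted p below 0.05 over all 17865 starts tested). That is 2.47% rising and 3.65% falling, beside 1.48% and 1.86% of all starts. The median log2 fold change of the share was -0.01 for these starts and -0.00 for all. A further 373 nodes could not be tested, 51 of them past 0.05 in Psi, and no call could be made for them. Either their own start held too few counts, or no other start of the gene held enough, as for Mov10. Without adjustment, 138 of the 768 starts (17.97%, beside 12.1% of all starts) had p below 0.05, 61 higher and 77 lower. DESeq2 called 106 (14.6% of those it tested, beside 13.5% of all starts) and limma voom 95 (12.4%, beside 11.3%). The edgeR test made few calls among modest changes in simulated libraries of the same size with 200 changed starts. At a log2 change of 1 it found 1 of them, beside 19 unchanged starts called. At 2 it found 27 (13.5%), beside 28, and at 3 it found 142 (71%), beside 37. Its calls can thus be false more often than the threshold states. DESeq2 found 119 (59.5%) at a change of 2, beside 51 unchanged starts called, and limma voom 101 (50.5%), beside 19. Only starts holding a small part of their gene's counts were changed, unlike those of Rtn4 or Net1 in Ag.

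The share did not overlap between the 5 Ag and the 5 Ag+Costim libraries for 58 of 760 starts, 22 higher (2.89%) and 36 lower (4.74%) in Ag+Costim. Over all starts the same was true of 4.97% and 6.16%, so the first exons did not stand above the background by this measure. Of the 47 called starts, 17 did not overlap. Counted separately, 15 of the 47 had Psi past 0.05, 3 of these higher and 12 lower. Only 7 met both conditions in the same direction. Among nodes past 0.05 in Psi, 26 of 284 (9.15%) had shares that did not overlap, against 37 of 861 (4.30%) of the other nodes. Of these 26, 20 moved the same way as Psi and 6 the opposite way. Of the 373 nodes that could not be tested for lack of counts, only 51 were past 0.05. The sets thus differed in how many starts held enough counts, and the contrast between them was not tested. Of the 281 nodes past 0.05 in genes with a mean count of at least 100, the share moved the same way as Psi in 183, the opposite way in 73 and not at all in 25.

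In 20 nodes Psi moved past 0.05 and the share moved the same way without overlap between libraries, 7 higher and 13 lower in Ag+Costim. These 20 were picked after their values were seen, and they are described here by what they encode. Since the lack of overlap chose them, no test of the share over these 10 libraries alone is given. Among them, 7 were called by edgeR over all starts: Rtn4, Zfp667, Blm and Stat5b lower, and Mast3, Dhx30 and Ptpn7 higher. Of the others, 12 could be tested: limma voom called 9 of them, DESeq2 9, and limma on the log-odds of counts per transcript length 5. The lack of overlap in the same libraries chose these nodes, so calls by any of these methods add no independent support. Where a node is said below not to be called, this is by edgeR. All 20 lay downstream of the most counted other start of their gene, as did 1013 of all 1145 nodes.

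**Figure D3:**
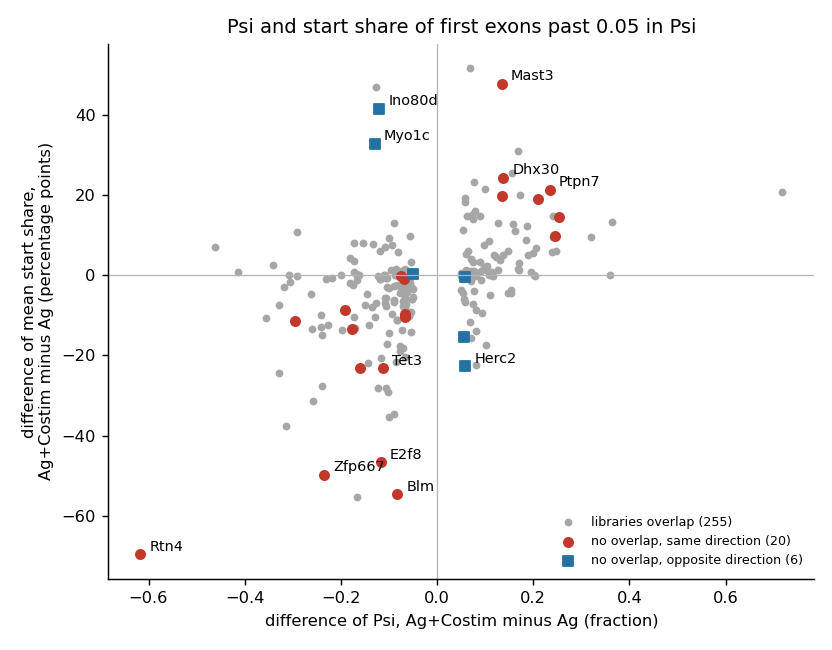
Difference of Psi (horizontal, Ag+Costim minus Ag) against difference of mean start share in percentage points (vertical) for the 281 alternative first exons past 0.05 in Psi in genes with a mean count of at least 100; circles in red are the 20 nodes that moved together, blue squares the 6 that moved opposite ways, and grey points nodes whose libraries overlap. Rtn4 lies far down on the left, and Mast3 has the highest share difference among the red points.

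Among these 20, Rtn4 had the widest change of Psi and of share. It encodes reticulon 4 (Nogo), a protein that shapes the tubules of the endoplasmic reticulum, and its short form made from the downstream promoter is known as Nogo-C. The node (ENSMUSG00000020458.16, chr11:29718563-29718882, plus strand, mm10) is the first exon of the 199-codon transcript shown above, 25616 bases downstream of the other start. Psi was 0.729 in Ag and 0.112 in Ag+Costim. Its share was 86.4%, 70.9%, 57.0%, 52.5% and 82.8% in the Ag libraries, and 0.464%, 0%, 0%, 0.595% and 0% in the Ag+Costim libraries. Every Ag library thus took most Rtn4 counts from this start and every Ag+Costim library next to none. The mean was 69.9% ± 15.1 (SD, n = 5) against 0.212% ± 0.294 (n = 5), a log2 fold change of -8.42 (edgeR adjusted p = 0.000548).

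The Naive libraries, at 3.82% and 1.40%, lay near Ag+Costim, though neither group was called against them by edgeR (adjusted p = 0.211 for Ag and 0.250 for Ag+Costim). The other start had 29.8% ± 14.9 in Ag and 89.7% ± 13.8 in Ag+Costim, and was 95.9% and 98.1% in Naive, but was not called (edgeR adjusted p = 0.381). Rtn4 as a gene did not pass the test (log2 fold change -0.18 ± 0.24 SE, edgeR adjusted p = 0.576), with 16.1 CPM in Ag against 14.3 in Ag+Costim. A further Rtn4 node, at chr11:29693774-29693962, had Psi 0.143 and 0.0861 and a share of 0% in all Ag libraries and 9.96% ± 13.8 in Ag+Costim. Its share was called higher (edgeR adjusted p = 0.00962) although the libraries overlapped and Psi went the other way.

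RNA of other cells differed between the groups too. The summed level of 5 erythroid markers (alpha and beta globins and Alas2) lay between 588 and 6712 CPM in Ag, between 14.0 and 210 in Ag+Costim and between 168 and 2310 in Naive, with none at 0 in any group. That of 5 B cell markers lay between 103 and 158 CPM in Ag, between 22.02 and 56.7 in Ag+Costim and between 30.6 and 33.2 in Naive, where 1 of the 5 was at 0. That of 5 myeloid markers was 41.2 to 168, 72.7 to 119 and 31.2 to 56.4 CPM, and Cd4 was at most 2.39 CPM in any library. CD8 T cell markers were high throughout, at 5335 to 6906, 3077 to 4144 and 6048 to 6529 CPM. Proliferation genes lay between 426 and 920 CPM in Ag, between 1778 and 2241 in Ag+Costim and between 34.0 and 35.6 in Naive. The part of these differences in the results on first exons was not tested. In bulk RNA, fewer cells of a type and less RNA per cell cannot be told apart. Library totals ran from 24006053 (Ag 4) to 49294934 counts.

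**Figure D4:**
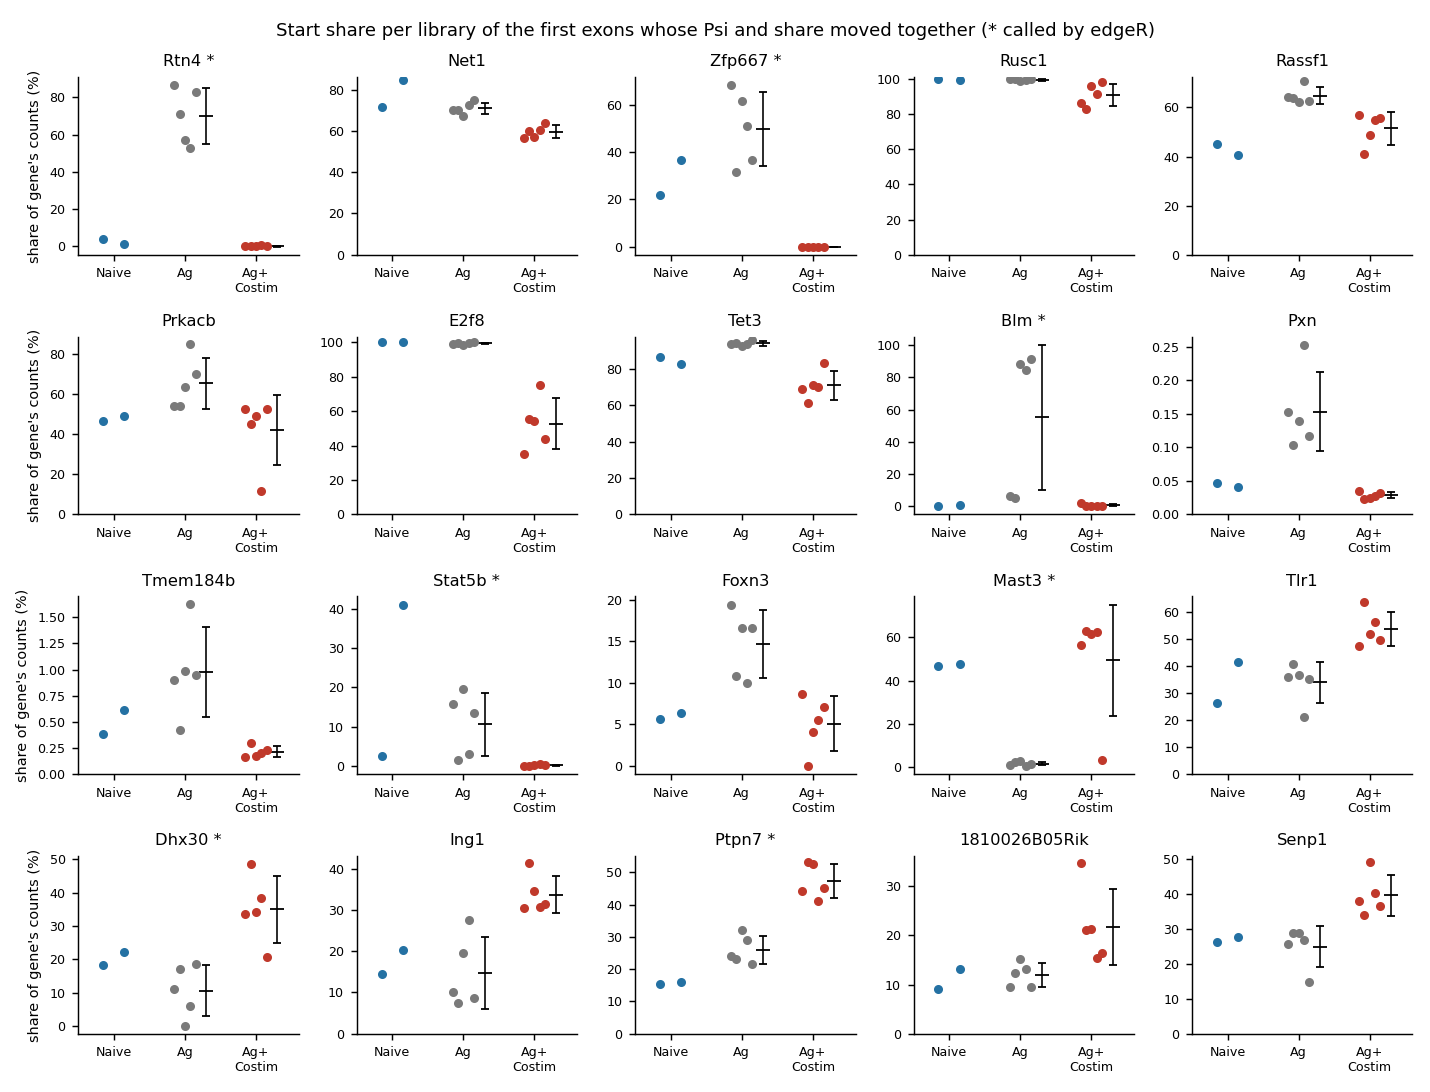
Share of the gene's counts held by the node's start (percent, vertical) in each library of Naive, Ag and Ag+Costim for the 20 nodes that moved together, 1 panel per gene with its own scale; points are libraries, and dashes with bars are the mean and SD of Ag and Ag+Costim (n = 5 each). The 5 Ag+Costim libraries lie below all Ag libraries for Rtn4, Zfp667, Blm and Stat5b and above them for Mast3, Dhx30 and Ptpn7.

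Signalling proteins made up a group of 5 among the 20 nodes. Stat5b encodes a transcription factor that carries signals of interleukin 2 and related cytokines. Its node (ENSMUSG00000020919.11, chr11:100822052-100822528, minus strand) had Psi 0.0826 in Ag and 0.0152 in Ag+Costim. Its share was 15.9%, 1.61%, 19.6%, 3.00% and 13.4% in Ag, and 0.195%, 0.0730%, 0.294%, 0.487% and 0.316% in Ag+Costim. Even the lowest Ag library was over the highest Ag+Costim library, but Ag itself was spread widely. The fall from 10.7% ± 7.98 to 0.273% ± 0.153 was a log2 fold change of -5.26 (edgeR adjusted p = 0.000288). The Naive libraries disagreed with each other, at 2.58% and 41.02%, and Ag+Costim was lower than Naive (edgeR adjusted p = 0.000177). The gene itself rose (log2 fold change 1.45 ± 0.11 SE, edgeR adjusted p = 1.58e-07), and both starts lead to the same start codon.

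Ptpn7 encodes a phosphatase of blood cells that acts on MAP kinases. Its node (ENSMUSG00000031506.11, chr1:135133309-135133455, plus strand) lay 608 bases downstream of the only other start, and Psi was 0.227 and 0.461. Its share was 24.1%, 23.1%, 32.2%, 28.9% and 21.5% in Ag, and 44.3%, 53.2%, 52.6%, 41.2% and 45.3% in Ag+Costim. The libraries were close within each group, with 25.96% ± 4.45 and 47.3% ± 5.29 (log2 fold change 0.88, edgeR adjusted p = 0.00722). Naive was lower than both, at 15.5% and 16.1%, and Ag+Costim was higher than Naive (log2 fold change 1.59, edgeR adjusted p = 0.000434). The gene did not pass the test, at 325 CPM ± 48.8 and 334 CPM ± 15.2 (edgeR adjusted p = 0.776), and both starts lead to the same start codon. The call was lost with no filter on low counts (edgeR adjusted p = 0.0511) and with starts joined over 50 bases (0.0615).

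Mast3 encodes a serine/threonine kinase with a microtubule-associated domain. Its node (ENSMUSG00000031833.10, chr8:70792226-70792437, minus strand) had Psi 0.827 and 0.961, far above its share in Ag, so the measures moved the same way from different levels. Its share was 0.915%, 1.99%, 2.42%, 0.318% and 1.31% in Ag, and 56.5%, 62.8%, 61.7%, 62.5% and 3.09% in Ag+Costim. Ag+Costim 5 thus stood with the Ag libraries, and the Naive libraries, at 47.0% and 47.5%, with the other Ag+Costim libraries. The mean rose from 1.39% ± 0.838 to 49.3% ± 25.97 (log2 fold change 5.18, edgeR adjusted p = 0.0387), and the gene rose by 1.31 ± 0.11 (SE) on the log2 scale. Leaving out Ag 1, 2, 4 or 5, Ag+Costim 1, 2, 3 or 4, or either Naive library ended the call (edgeR adjusted p from 0.0576 to 0.0812).

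Prkacb encodes a catalytic subunit of protein kinase A, which passes on cyclic AMP signals, and its starts give proteins with different amino ends. The node (chr3:146781147-146781416) had Psi 0.918 and 0.759. Its share was 54.0%, 53.8%, 63.4%, 84.8% and 70.0% in Ag, and 52.3%, 45.2%, 49.02%, 11.4% and 52.4% in Ag+Costim. The groups did not overlap, but the lowest Ag and highest Ag+Costim libraries were close, and the change was not called (edgeR adjusted p = 0.293). Tlr1, a receptor for bacterial lipopeptides, had Psi 0.400 and 0.534 and a share of 33.8% ± 7.53 in Ag and 53.6% ± 6.41 in Ag+Costim, with 26.2% and 41.4% in Naive (not called, edgeR adjusted p = 0.367).

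Regulators of the cytoskeleton and of cell shape included Net1 and Rassf1, both with a start codon in the node. Net1 is an exchange factor for small GTPases. Its node (chr13:3893293-3893578) had Psi 0.765 and 0.470, and its share was 70.1%, 70.0%, 67.3%, 72.4% and 74.8% in Ag and 56.6%, 59.8%, 57.1%, 60.6% and 64.0% in Ag+Costim. Replicates were close, at 70.9% ± 2.80 and 59.6% ± 3.02, but the change was small as a ratio and was not called (log2 fold change -0.25, edgeR adjusted p = 1.00). Naive was at 71.3% and 84.6%.

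Rassf1 encodes a scaffold of the Hippo pathway that binds microtubules. Its node (chr9:107554583-107554925) had Psi 0.573 and 0.397, and its share was 64.4%, 63.8%, 62.1%, 70.9% and 62.8% in Ag and 56.9%, 41.1%, 48.9%, 54.9% and 55.7% in Ag+Costim. Naive, at 45.0% and 40.6%, lay under both means, and the change was not called (edgeR adjusted p = 0.875). Rusc1, an adaptor protein of vesicle traffic, had Psi 0.865 and 0.673 and a share of 99.6% ± 0.579 in Ag and 90.9% ± 6.37 in Ag+Costim. Its other start was almost silent in Ag (0% in 3 of 5 libraries) and rose to 1.91% to 17.2% in Ag+Costim (log2 fold change 4.59, edgeR adjusted p = 0.00693). Pxn, the focal adhesion protein paxillin, had Psi 0.103 and 0.0278, but its start held only 1 count a library and could not be tested.

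Among regulators of transcription and chromatin was Zfp667, a zinc finger protein. The start of its node (ENSMUSG00000054893.15, chr7:6287868-6287970, plus strand) held no counts in Ag+Costim. Psi was 0.366 and 0.131. Its share was 68.4%, 31.7%, 61.7%, 51.0% and 36.6% in Ag and 0% in all 5 Ag+Costim libraries, which together held 876 counts of the gene. By counting error alone, a count of 0 there allows a share of up to 0.342%, at least 146-fold lower than in Ag (edgeR adjusted p = 3.59e-07). Psi was still 0.131 in Ag+Costim, so the measures disagree on a full loss. The fold holds for the counts as StringTie divided them, not for the exon. Naive was at 21.8% and 36.6%, and Ag+Costim was lower than Naive as well (edgeR adjusted p = 2.36e-06). The gene fell by 1.13 ± 0.29 (SE) on the log2 scale (edgeR adjusted p = 0.00494), from 9.05 to 4.12 CPM, and the start codon is shared.

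E2f8, a repressor of the E2F family active in cycling cells, showed the change at its other start. The node (chr7:48880661-48881041) had Psi 0.873 and 0.756, and its share was 99.2%, 99.5%, 98.6%, 99.7% and 100% in Ag and 35.3%, 55.4%, 54.4%, 74.99% and 43.7% in Ag+Costim. The start 555 bases upstream was at 0.121% ± 0.271 in Ag, at 0% in both Naive libraries and at 47.2% ± 14.9 in Ag+Costim (log2 fold change 7.96, edgeR adjusted p = 1.83e-07), while the node's own start was not called (adjusted p = 0.2005). The gene rose by 3.31 ± 0.22 (SE) on the log2 scale, and the start codon is shared.

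Tet3, an enzyme that oxidises methylated cytosine in DNA, likewise showed a called change at its other start only. Its node (chr6:83441550-83441675) had Psi 0.533 and 0.420 and a share of 93.6%, 94.6%, 92.7%, 94.1% and 96.1% in Ag and 68.9%, 61.2%, 71.3%, 70.0% and 83.6% in Ag+Costim, with 86.6% and 82.8% in Naive. The other start, 14714 bases upstream, rose from 5.76% ± 1.24 to 29.0% ± 8.06 (log2 fold change 2.34, edgeR adjusted p = 0.00613), and the node's start was not called (adjusted p = 0.812). The transcripts of the node had 1668 codons and those of the other start 1803. Unlike E2f8, the gene fell, by 0.71 ± 0.15 (SE) on the log2 scale (edgeR adjusted p = 0.00103), and the start codon is not shared.

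Ing1, a reader of histone methylation, had Psi 0.321 and 0.531. Its share was 14.7% ± 8.68 in Ag and 33.7% ± 4.55 in Ag+Costim, and the gene fell by 0.82 ± 0.08 (SE) on the log2 scale. Foxn3, a forkhead repressor, had Psi 0.154 and 0.0869, with a share of 14.7% ± 4.09 and 5.07% ± 3.30. Neither share was called (edgeR adjusted p = 0.152 for Ing1 and 0.195 for Foxn3).

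Enzymes of DNA, RNA and protein formed the last group. Blm encodes a DNA helicase of the RecQ family. Its node (ENSMUSG00000030528.12, chr7:80534651-80534998, minus strand) lay only 121 bases from the other start, and its transcript had 1419 codons against 1416. Psi was 0.141 and 0.0585. Its share was 6.31%, 5.03%, 88.3%, 84.4% and 91.4% in Ag and 1.82%, 0.0708%, 0.166%, 0.174% and 0% in Ag+Costim. The Ag libraries fell far apart, 3 above 84% and 2 below 7%, although all were above Ag+Costim. The fall from 55.1% ± 45.2 to 0.447% ± 0.773 was a log2 fold change of -6.79 (edgeR adjusted p = 0.00460), Naive was at 0% and 0.427%, and the gene rose by 3.38 ± 0.18 (SE) on the log2 scale.

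Dhx30 encodes an RNA helicase of mitochondria. Its node (ENSMUSG00000032480.17, chr9:110100816-110101087, minus strand) had Psi 0.277 and 0.415. Its share was 11.1%, 17.1%, 0.110%, 6.12% and 18.5% in Ag and 33.5%, 48.6%, 34.2%, 38.3% and 20.7% in Ag+Costim. The highest Ag library and the lowest Ag+Costim library were 18.5% and 20.7%, and Naive lay between the groups, at 18.5% and 22.1%. The rise from 10.6% ± 7.67 to 35.0% ± 10.02 was a log2 fold change of 1.71 (edgeR adjusted p = 0.0392). It was lost without Ag 1 or 4 or Ag+Costim 1, 2, 3 or 4 (edgeR adjusted p from 0.0745 to 0.166).

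Senp1, a protease that removes SUMO from proteins, had Psi 0.320 and 0.573 and a share of 24.9% ± 5.85 and 39.5% ± 5.80 (edgeR adjusted p = 0.502). Tmem184b, a membrane protein, had Psi 0.107 and 0.0397 and a share of 0.976% ± 0.429 and 0.213% ± 0.0524 (edgeR adjusted p = 0.353). Its start held a mean of only 5.0 counts a library in Ag and 4.8 in Ag+Costim. The gene rose by 1.88 ± 0.13 (SE) on the log2 scale, so the share fell without a clear fall of the start's own counts. In 1810026B05Rik, a gene with no annotated start codon at the node, Psi was 0.0641 and 0.310 and the share 11.98% ± 2.47 and 21.8% ± 7.76 (edgeR adjusted p = 0.551). Its other start, 422 bases away, fell from 78.1% ± 5.46 to 37.5% ± 7.55 (log2 fold change -1.09, edgeR adjusted p = 0.0242), and the gene fell by 2.33 ± 0.19 (SE) on the log2 scale.

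Psi and share went opposite ways, without overlap between libraries, in 6 nodes: Myo1c, Ino80d, Tbl1xr1, Agpat3, Egr2 and Herc2. For Myo1c, a myosin motor, Psi was 0.724 in Ag and 0.596 in Ag+Costim, while the share was 47.2% ± 28.1 in Ag and 80.1% ± 4.38 in Ag+Costim. Herc2, a ubiquitin ligase, had Psi 0.0505 and 0.109 and a share of 94.1% ± 3.95 and 71.4% ± 12.003, so that the levels disagreed as well. None of the 6 was called by edgeR at the node's start, and 2 of them, Tbl1xr1 and Egr2, held too few counts for the test.

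Several starts changed share with little change of Psi, and those named here were chosen after their values were seen. Klf13, a Krüppel-like transcription factor of T cells, had 15.1%, 13.7%, 16.7%, 17.8% and 12.04% in Ag and 1.93%, 3.17%, 0.135%, 1.24% and 3.62% in Ag+Costim (log2 fold change -2.87, edgeR adjusted p = 0.000638), while Psi was 0.0522 and 0.0325. Sumo2, a small modifier of proteins, fell from 9.89% ± 2.79 to 2.17% ± 1.27 (edgeR adjusted p = 0.000446). Zbtb20, a zinc finger repressor, fell from 8.70% ± 6.94 to 0% in all 5 Ag+Costim libraries (edgeR adjusted p = 1.05e-06). Its Psi fell too, from 0.101 to 0.0544, just short of the 0.05 threshold. Gse1 rose from 0.913% ± 0.283 to 10.96% ± 8.01 (edgeR adjusted p = 0.000355), and N4bp2 from 1.24% ± 1.76 to 33.3% ± 22.4 (edgeR adjusted p = 6.59e-05). In these 5 genes the libraries of the groups did not overlap.

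Conversely, wide changes of Psi did not always show in the libraries. Kdm2b, a histone demethylase, had a node with Psi 0.343 and 0.706, but its share overlapped, at 0% to 25.4% in Ag and 17.1% to 30.1% in Ag+Costim. Arap1, a regulator of Arf GTPases, had Psi 0.706 and 0.365 and a share of 13.7% to 47.0% in Ag and 11.1% to 45.6% in Ag+Costim. For Mov10, an RNA helicase, Psi was 0.655 and 0.857, while the share was above 99% in all libraries.

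Regulators of T cell fate known for paired promoters held 6 nodes, and none was called at adjusted p below 0.05 by edgeR. Foxp1, a guardian of T cell quiescence, had Psi 0.803 in Ag and 0.497 in Ag+Costim, and a share of 6.57% in Ag, 4.98% in Ag+Costim and 17.7% in Naive. Library Ag+Costim 2 alone was at 17.0%, the others between 1.14% and 3.83%, and without it the log2 fold change went from -0.44 to -1.55. By limma on log-odds the Foxp1 share was called lower (adjusted p = 0.0124). Its most counted other start fell from 55.0% to 21.1% (log2 fold change -1.44, edgeR adjusted p = 0.0204), a call lost without Ag 1, Ag+Costim 1 or Ag+Costim 4 (adjusted p from 0.0614 to 0.129). Satb1, an organiser of chromatin, had Psi 0.839 and 0.791 and a share of 74.4% and 62.0%, with 42.8% in Naive. Lef1, a partner of beta-catenin, had Psi 0.566 and 0.5999 and a share of 23.2% and 30.4%. Tcf7, the factor of naive and memory-like T cells, had Psi 0.152 and 0.229 and a share of 94.1% and 95.2%. Nfatc1, a calcium-responsive factor, had Psi 0.465 and 0.497 and a share of 64.4% and 65.5%, and Stat4, which carries interleukin 12 signals, Psi 0.996 and 0.997 and a share of 99.4% and 98.7%.

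Other pathways were described by their counts, to be read beside 24.8% of all first exons past 0.05 in Psi and 6.12% of their tested starts called. Most lists are so short that a single node moves the share by more than these figures. T cell receptor signalling held 7 nodes in 5 genes, none past 0.05 in Psi, and 1 was called: Fyn, a kinase next to the receptor, whose start went from 0.00132% to 1.84% ± 3.06, with 7.09% and 2.05% in a pair of Ag+Costim libraries and at most 0.0774% in the other 3. The MAP kinase cascade held 4 nodes, of which Map2k7 was lower by over 0.05 in Psi (0.115 in Ag, 0.0524 in Ag+Costim) and the start of Mapk14 (p38) was called lower (9.12% ± 15.97 to 0.239% ± 0.383), with 3 of 5 Ag libraries at 0%. Of 13 cell cycle nodes, 2 were higher by over 0.05 in Psi (Cdca2 and Cdk2ap1), 2 lower (Cdc14b and E2f8), and the start of Ccnd3, cyclin D3, was called higher at a very low level (0.00455% to 0.0646%). Splicing factors held 3 nodes, and both nodes of Hnrnpf were higher in Psi (0.509 against 0.569 and 0.305 against 0.420) with no start called.

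Of 6 nodes of cytokine and costimulatory receptors, 2 were higher and 1 lower by over 0.05 in Psi, with no start called. The 2 nodes of Tnfrsf9, which encodes 4-1BB, the target of an agonist antibody used here, moved apart: Psi at chr4:150925306-150925425 was 0.645 and 0.771, and at chr4:150927999-150928085 it was 0.892 and 0.792. Small GTPase regulators held 21 nodes, of which 1 (Arhgef2) was lower by over 0.05 in Psi, and the start of Rapgef2 was called lower on the strength of 1 library, Ag 3, at 34.8% with 0% in the other Ag libraries and in all of Ag+Costim, and 62.7% and 57.1% in Naive. Chromatin and transcription, the largest list with 50 nodes, had 4 nodes higher and 13 lower in Psi by over 0.05 and 5 called starts of 39 tested, 2 higher and 3 lower. The ubiquitin system held 31 nodes, with 2 nodes higher, 4 lower and 1 start of 16 tested called higher (Ube2e3). The share of nodes past 0.05 was 34.0% for chromatin and transcription and 19.4% for the ubiquitin system, beside 24.8% for all first exons.

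Against Naive, edgeR called fewer starts, but the order of the comparisons depended on the tool. By edgeR, Ag differed from Naive at 18 of the 768 starts, 5 higher (0.651%) and 13 lower (1.69%), beside 0.420% and 1.26% of all starts. Ag+Costim differed at 27, 8 higher (1.04%) and 19 lower (2.47%), beside 0.465% and 1.46%. With 2 Naive libraries these counts rest on few samples, and without Naive 1 they were 10 and 14, and without Naive 2 the second was 12. Limma voom called 75 for Ag (9.77%, beside 14.8% of all starts) and 112 for Ag+Costim (14.6%, beside 21.8%), and DESeq2 82 (11.3%, beside 11.6%) and 102 (14.1%, beside 17.5%). The comparisons share libraries. Of the 20 nodes that moved together, the mean share in Naive lay nearer to Ag in 12 and nearer to Ag+Costim in 8, with E2f8, Zfp667 and Ptpn7 among the former and Rtn4, Blm and Mast3 among the latter.

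The genes that hold these first exons also changed in level. Of 990 genes tested, 384 rose (38.8%) and 301 fell (30.4%) with costimulation, beside 26.6% and 26.5% of all genes (edgeR, adjusted p below 0.05 over 18817 genes). With upper-quartile scaling the split turned, to 316 higher and 381 lower, and the median log2 fold change moved from 0.07 to -0.13, so no direction is given for the genes as a group. The split of all genes under that scaling is not given here. Among the 20 nodes that moved together, the gene rose in 11, fell in 6 and was not called in 3 (Rtn4, Rassf1 and Ptpn7).

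Whether a switch would reach the protein was read from the annotation. The start codon of the node's transcripts lay in the first exon itself for 399 nodes and in a later exon for 723. With the most counted other start, 532 nodes shared at least 1 annotated start codon and 524 shared none. None was shared for 36.4% of the nodes with Psi higher by over 0.05 (36, against 63 that shared), 51.2% of those with Psi lower (84 against 80) and 50.9% of the rest (404 against 389). Of the 20 nodes that moved together, 10 shared none, 9 shared at least 1 and 1 could not be compared. A shared start codon need not be that of every transcript. Ing1 counted as shared, although a transcript of its node had 185 codons and one of the other start 279, from different start codons. Nodes lay a median of 2440.5 bases from the other start, with 1171 bases where Psi was higher and 3043.5 bases where it was lower. In 9 genes 1 node gained and another lost over 0.05 of Psi. The gaining exon was the upstream of the pair in 5 and the downstream in 4.

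The promoters of these first exons held more CG pairs than promoters at large, but not more than those of the most counted other starts. Of the nodes, 544 began within 50 bases of a RefSeq start. The 250 bases before it had a median of 59.6% G and C and 13 CG pairs, beside 52.4% and 6 in all 32851 promoters. Promoters of the most counted other starts (n = 565) had 60.8% and 16. Nodes higher by over 0.05 in Psi had a median of 16 CG pairs (n = 60), nodes lower 14 (n = 89) and the rest 12 (n = 395). In 330 nodes with both promoters known, the node had fewer CG pairs than the other start in 178, more in 138 and as many in 14. The letters TATAAA, searched on both strands, were found in 5.15% of node promoters and 12.4% of all, CCAAT in 25.9% and 33.8%, and GGGCGG, the core of the GC box, in 50% and 32.7%. For the most counted other starts the figures were 5.31%, 34.2% and 63.0%. GGGCGG was found in 65.0% of the nodes higher in Psi and 49.4% of those lower. TGACTCA, the AP-1 site, was found in 2.94% and 4.46%, CCGGAAG, a core of ETS sites, in 9.01% and 6.91%, and TGACGTCA, the CRE, in 2.02% and 1.55%. These are matches of letters and say nothing of binding.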

How the data were processed

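Bulk RNA-seq of 12 libraries (5 Ag, 5 Ag+Costim, 2 Naive; 1x100 base reads) was used. The authors deposited whole-number counts per transcript and per gene from StringTie 2.1.0 after alignment with HISAT2 2.1.0 (mm10, per the labels' processing notes, which also name SAMtools 1.9, R 4.0.5 and DESeq2 1.30.1). The authors deposited Psi from Whippet as a fraction, 1 value per group; its version and how libraries were combined are not given in the sources used here. The same table holds the authors' difference of Psi and its probability, which were not used. No column of per-sample values was left unmapped (0).

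Nodes were matched to GENCODE vM21 transcripts, and transcript counts were summed per start. Starts passing filterByExpr in genes with 2 or more were tested in edgeR 4.0.16 (TMM, quasi-likelihood fit on all 12 libraries, diffSpliceDGE, two-sided, Benjamini-Hochberg over 17865 starts). Gene counts were tested with edgeR's quasi-likelihood test. StringTie divides reads among overlapping transcripts, so shares of starts that lie close together depend on that division, and the kit does not mark strand, so reads of overlapping antisense genes cannot be told apart. Limma 3.58.1 and DESeq2 1.42.0 served as alternatives, beside other filters, scaling, thresholds, samples and starts joined over 50 bases. The test was checked on simulated libraries of 200 changed starts. CPM used TMM library sizes. The upper limit for a count of 0 is 3 counts over the group's counts of the gene and covers counting error only. It does not cover StringTie's division of reads among transcripts.

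Members and gene lists were chosen with earlier results of these data known. The rule for named nodes took those past 0.05 in Psi, called in the same direction, without overlap between libraries and with a mean gene count of at least 100 (up to 12 a direction), plus the nodes of the list of regulators. It gave 7 called nodes and 6 of the list; all other nodes are named after their values were seen. Nodes of a gene are not independent. Library numbers are shared between groups, and whether they pair libraries was not settled. Correlations of same-numbered deviations were low, at 0.0159 to 0.0951, but numbers 1 to 3 each correlated best with their own number. The main tests used no pairing. Totals were 24006053 to 49294934 counts.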

Additional observations from a re-analysis of the deposited data

Results flagged for a closer look

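Among 61 groups of 5 libraries looked at for the named first exons, 10 held a library far from the other 4, with a gap over 0.71 of the group's range; chance gives about 1 in 20. In Ag+Costim, the Mast3 start share of library 5 was 3.09% against 56.5% to 62.8% in the others, Prkacb in library 4 was 11.4% against 45.2% to 52.4%, and Foxp1 in library 2 was 17.0% against 1.14% to 3.83%. Blm in library 1 was 1.82% against 0% to 0.174%, Lef1 in library 1 was 42.0% against 25.6% to 30.1%, and Tbl1xr1 in library 4 was 0.623% against 0.0998% to 0.213%. In Ag, library 4 stood apart for Rassf1, at 70.9% against 62.1% to 64.4%, and for Tlr1, at 20.9% against 35.3% to 40.6%. Nfatc1 in library 2 was 52.3% against 65.2% to 69.5%, and Senp1 in library 5 was 14.7% against 25.6% to 28.9%. Ag 4 was also the library with the fewest counts, and its part in these values was not tested.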

How the results depend on the processing

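The calls on start shares of Rtn4, Zfp667, Blm and Stat5b held under every alternative and without each library in turn. The number of starts called depended on the tool, and the cause was not tested. Shares over all starts are given above for the main edgeR test, limma voom and DESeq2. For the other settings below no share over all starts or all genes is given. Those counts therefore show only how the calls vary with the setting, not how these first exons compare with the background. For Ag+Costim against Ag it was 47, and 28 with only those 2 groups in the fit, 95 by limma voom, 106 by DESeq2, 23 at adjusted p below 0.01 and 33 to 45 without each library. For Ag against Naive it was 18, and 75 by limma voom, 82 by DESeq2, 10 at adjusted p below 0.01 and 10 to 22 without each library (10 without Naive 1). For Ag+Costim against Naive it was 27, and 112 by limma voom, 102 by DESeq2, 48 by limma on log-odds of counts per transcript length, 13 at adjusted p below 0.01 and 12 to 34 without each library (14 without Naive 1 and 12 without Naive 2). Genes called ran from 653 to 720 without each library. Of the 284 nodes past 0.05 in Psi, 130 passed 0.1 and 41 passed 0.2. The gaining exon was upstream in 3 of 6 genes past 0.1, and in 202 of 349 by share in place of Psi. With starts joined over 50 bases the log2 fold change of the Stat4 share was 0.013, and that of Nfatc1 ran from -0.036 (without Ag 2) to 0.080 without each library, and was -0.014 without Ag+Costim 5, with neither called. With the replicate number as a block, 33, 12 and 20 starts and 683 genes were called, and Dhx30 lost its call (edgeR adjusted p = 0.0533). Each of libraries 1 to 3 correlated best with its own number, and for each of libraries 4 and 5 there was 1 other number that was higher. Whether the numbers pair libraries was not settled by these values. Of the 12 tested nodes that moved together without a call by edgeR, limma voom called 9, DESeq2 9 and limma on log-odds 5, and log-odds also called Foxp1 (adjusted p = 0.0124). Mast3 also lost its call by limma voom (adjusted p = 0.0508) and with only 2 groups (0.0648), Dhx30 by DESeq2 (0.0966), log-odds (0.0713) and 2 groups (0.0752). In alternatives chosen after seeing the data, 21 nodes moved together with counts per transcript length (17 shared with the 20), 15 past 0.1, and 22 to 28 without each library. Too few counts at the node's start or at the other starts of its gene kept 373 nodes out of the test.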
